A study of Homo sapiens with 4 samples.

Results

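The 10 TNF receptor superfamily genes TNFRSF4, TNFRSF8, TNFRSF9, TNFRSF1A, TNFRSF1B, TNFRSF10B, TNFRSF14, TNFRSF25, FAS and CD27 were followed in Jurkat cells, a T cell line established from a human leukaemia. They were read through every probe set that the platform annotation gives to 1 of these symbols alone, which came to 24 of the 54675 probe sets on the array. The cells carried a hairpin that targets the kinase IKKε (the shIKKE line) or a control construct (the control line), which the titles call a vector and the design text a control hairpin. Each line was treated for 3 h with 10 ng/ml PMA plus 0.5 uM ionomycin, here called stimulation, or with solvent. The 4 groups were therefore the shIKKE line with stimulation, the shIKKE line with solvent, the control line with stimulation and the control line with solvent, with 1 array each. Whether a line is 1 clone or a pool of cells is not given in the sources used here. All 4 groups are a leukaemia line that carries a construct, and PMA and ionomycin replace the T cell receptor rather than engage it.

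Receptors of this superfamily sit in the cell membrane and bind trimeric ligands of the TNF family. One class, here TNFRSF1A, TNFRSF10B, TNFRSF25 and FAS, carries a death domain in its cytoplasmic tail and can recruit FADD or TRADD, which lead to caspase activation or to NF-κB. The other class, here TNFRSF4 (OX40), TNFRSF8 (CD30), TNFRSF9 (CD137), TNFRSF1B (TNF receptor type II), TNFRSF14 (HVEM) and CD27, binds TRAF proteins and is best known in T cells for costimulation after antigen contact. PMA activates protein kinase C and ionomycin admits calcium, so together they drive NF-κB, AP-1 and NFAT, and IKKε is a kinase of the NF-κB and interferon pathways.

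The values are MAS5 signals on a linear scale, scaled by the authors so that the trimmed mean of each array was the same. Of the 24 probe sets, 16 reached the filter of 56.4, the median of all signals, on at least 1 array, and these covered 8 of the 10 genes. Each gene is given by the probe set whose mean log2 value was highest, and differences are of log2(signal + 14.1), which understates the change of dim genes. With 1 array a group no difference between 2 arrays has a replicate check or a p-value, and a difference of at least 2-fold (1 on the log2 scale) is only a description of those arrays. The median signal was 69.1 and 49.7 in the shIKKE line with stimulation and solvent, and 59.8 and 48.8 in the control line with stimulation and solvent. The targeted gene IKBKE read 248 in the shIKKE line against 520 in the control line with stimulation, and 180 against 340 with solvent. A second IKBKE probe set read 280 in the shIKKE line against 311 in the control line with stimulation, and 287 against 218 with solvent, the opposite direction. All 12 T cell markers looked at were above the filter on every array, and their summed signal lay between 73240 and 81110. The brightest markers carry that sum, and single markers differed more. With stimulation all 12 lay within 2-fold in the shIKKE line, and 10 did in the control line. There LAT read 10071 with stimulation against 3713 with solvent, and CD2 760 against 1976. CD2 was also lower in the shIKKE line than in the control line (log2 -1.08 with stimulation and -1.95 with solvent). Of 6 markers each, 3 B cell, 2 myeloid, 3 natural killer and 2 erythroid or epithelial ones passed the filter, with a highest signal of 520. The summed signal of the myeloid markers past the filter was 209.8 in the shIKKE line with stimulation and 95.1 with solvent, and 60.1 in the control line with stimulation and 71.7 with solvent, and its part in the results was not tested. The control line with solvent stood apart, in that the early response gene EGR1 read 1035 in the shIKKE line against 9953 in the control line with solvent, and FOSB 7.38 against 1364. The stimulation differences of the receptors are therefore also given with the solvent array of the other line as baseline, and such values also hold the difference between the lines. In such bulk samples, fewer expressing cells and less RNA per cell cannot be told apart.

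With stimulation, TNFRSF1A read about 3-fold higher in both lines, and TNFRSF4 and TNFRSF8 read higher mainly against the solvent array of the control line. By their brightest probe sets, FAS, CD27, TNFRSF10B and TNFRSF14 read higher in the shIKKE line but lower in the control line when each line was set against its own solvent array. With the other line's solvent array as baseline, TNFRSF14 alone of these 4 kept both signs. Its solvent signals were nearly equal, at 158 in the shIKKE line and 162 in the control line. The exchange could therefore hardly move its values and is no check of them. TNFRSF9 and TNFRSF1B stayed under the filter on all arrays. In the shIKKE line 2 of the 8 genes past the filter, TNFRSF1A and CD27, were at least 2-fold higher and none was lower, where 10.3% of 13717 genes were higher and 2.68% lower. In the control line 3 of the 8 were at least 2-fold higher and none was lower, where 7.57% of all genes were higher and 6.44% lower. The median log2 difference of the 8 genes was 0.75 in the shIKKE line and -0.33 in the control line, beside -0.01 and -0.07 over all genes. Without TNFRSF25, for which no direction is drawn below, it was 0.70 and -0.34. With the other line's solvent array as baseline the medians of the 8 were 0.76 and 0.20. The sign of the control line's median thus rests on which solvent array is used. Of all genes past 2-fold with stimulation, 79.4% were higher in the shIKKE line and 54.0% in the control line, against 53.3% and 40.6% after quantile normalization. Between lines with stimulation 71.7% were higher in the shIKKE line, against 59.3% after quantile normalization. The receptors other than TNFRSF25 kept the signs of their stimulation differences under that scaling.

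**Figure D1:**
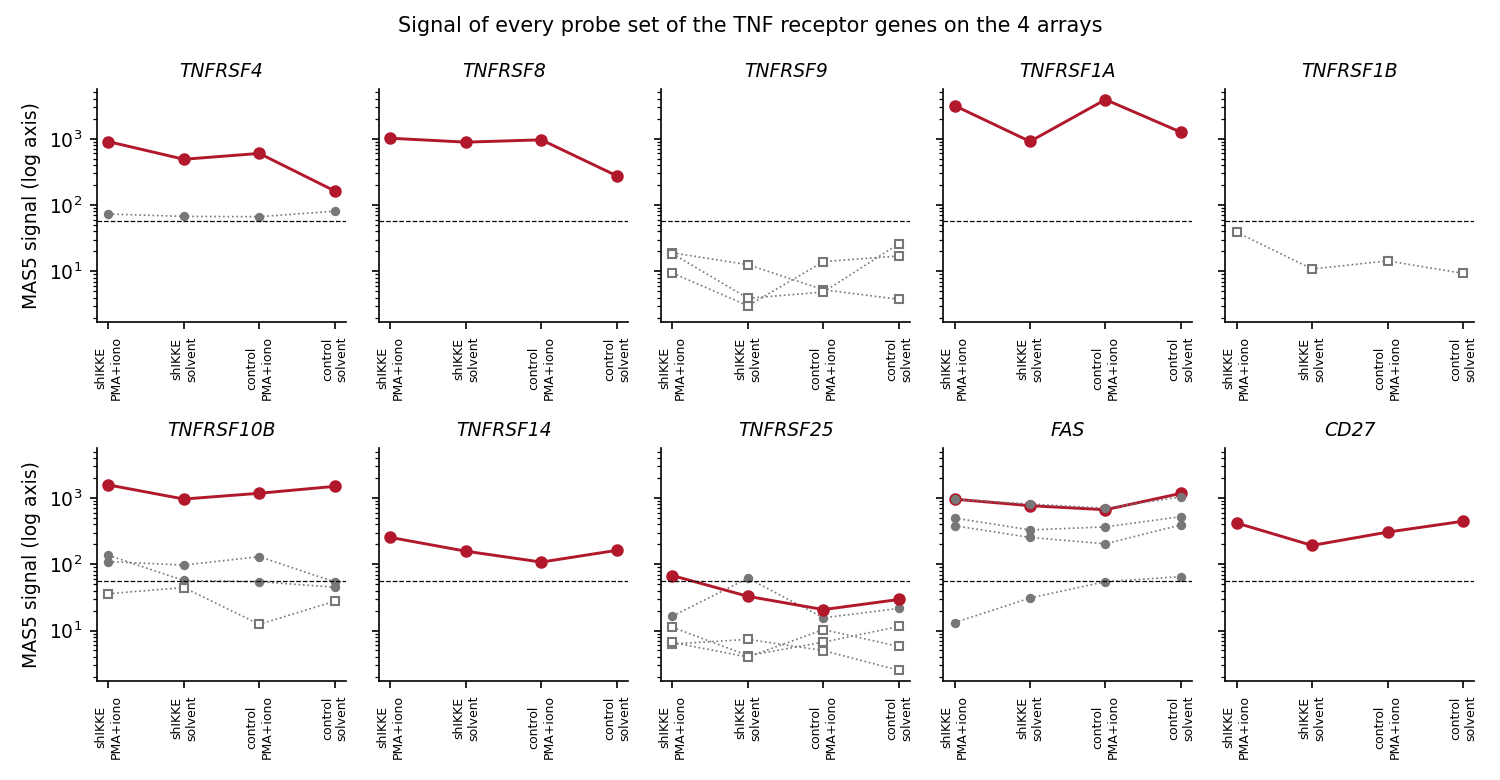
Signal of all 24 probe sets of the 10 genes on the 4 arrays, on a log axis, with the arrays in the order shIKKE stimulated, shIKKE solvent, control stimulated and control solvent. Red lines are the probe set that stands for a gene, grey dotted lines the others, open squares probe sets that never reached the filter of 56.4 (dashed line); TNFRSF9 and TNFRSF1B have open squares only.

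TNFRSF1A encodes TNF receptor type I, the death domain receptor that most cell types carry for TNF and lymphotoxin alpha. It read 3172 with stimulation against 912 with solvent in the shIKKE line, and 3909.6 with stimulation against 1258 with solvent in the control line. Both stimulated arrays were above both solvent arrays. The log2 difference was 1.78 in the shIKKE line (3.44-fold) and 1.62 in the control line (3.08-fold). Among 13717 genes these differences ranked 465 and 335 from the highest. TNFRSF1A was the 1 gene of the 8 that was at least 2-fold higher in both lines, which 3.29% of all genes were. Averaged over the lines the log2 effect of stimulation was 1.70 ± 0.25 (SE), with an adjusted p of 0.1325 (limma, with line and stimulation as additive terms). With the solvent array of the other line as baseline the log2 differences were 1.32 in the shIKKE line and 2.08 in the control line, so TNFRSF1A was past 2-fold there too. The line itself differed less, with log2 differences of shIKKE over control of -0.30 with stimulation and -0.46 with solvent.

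TNFRSF4 encodes OX40, a costimulatory receptor that T cells put on their surface after activation. Its probe set 214228_x_at read 907 with stimulation against 491 with solvent in the shIKKE line, and 601 with stimulation against 163 with solvent in the control line. The control line with solvent was the low array of the 4. The log2 difference of stimulation was 0.87 in the shIKKE line and 1.80 in the control line, and that of the shIKKE line over the control line was 0.58 with stimulation and 1.51 with solvent. The other TNFRSF4 probe set, 208023_at, was dim and flat. It read 73.0 with stimulation against 67.4 with solvent in the shIKKE line, and 66.6 against 80.7 in the control line, so that its stimulation difference in the control line had the opposite sign (log2 -0.23). A name ending in x_at means that probes of the set can bind other transcripts too, so the TNFRSF4 values rest on a probe set that need not be specific, and without it the log2 differences of stimulation were 0.10 in the shIKKE line and -0.23 in the control line.

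TNFRSF8 encodes CD30, a TRAF-binding receptor of activated lymphocytes and a classic marker of Hodgkin and anaplastic large cell lymphoma. Its single probe set read 1019.6 with stimulation against 889.9 with solvent in the shIKKE line, and 965 with stimulation against 276 with solvent in the control line. The control line with solvent was the low array, and the other arrays lay close together. The log2 difference of stimulation was 0.19 in the shIKKE line and 1.76 in the control line, which left a difference of responses (shIKKE minus control) of -1.56. At rest the shIKKE line read 3.12-fold higher than the control line (log2 1.64), whereas with stimulation the log2 difference was 0.08. For TNFRSF4 and TNFRSF8 alike, the response of the control line and the difference of the lines at rest share that 1 array. With the shIKKE line's solvent array as baseline, the log2 difference of the stimulated control line was 0.29 for TNFRSF4 and 0.11 for TNFRSF8. With the control line's solvent array as baseline, that of the stimulated shIKKE line was 2.38 for TNFRSF4 and 1.83 for TNFRSF8. The other line's baseline thus put 3 genes past 2-fold for the stimulated shIKKE line, in place of 2, and 1 for the stimulated control line, in place of 3. With that baseline 1444 of 13717 genes were at least 2-fold higher for the stimulated shIKKE line, and 1100 for the stimulated control line.

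Averaged over both lines, neither receptor passed. The limma effect of stimulation was 1.33 ± 0.33 (SE) for TNFRSF4, with an adjusted p of 0.218, and 0.97 ± 0.44 (SE) for TNFRSF8, with an adjusted p of 0.409. The limma effect of the line was 1.05 ± 0.33 (SE) for TNFRSF4, adjusted p 0.623, and 0.86 ± 0.44 (SE) for TNFRSF8, adjusted p 0.744. None of the 8 genes passed an adjusted p of 0.05 for stimulation, where 1 of 13717 genes (0.00729%) did, and none passed for the line, where 0 of all genes (0%) did. At an unadjusted p under 0.05 limma had 2 of the 8 for stimulation, beside 13.8% of all genes, and 1 of the 8 for the line, beside 7.29%. The 1 residual degree of freedom of this model measures how far the responses of the lines differ, so genes with unlike responses carry a large error. When the prior variance followed the level, limma gave adjusted p of 2.573e-11 for TNFRSF1A, 8.228e-05 for TNFRSF4 and 0.004774 for TNFRSF8 for stimulation, beside 7.61% of all genes that passed. For the line the same limma fit passed 1 of the 8, TNFRSF4, with an adjusted p of 0.01513, beside 1.69% of all genes. That fit borrows its error from other genes of like level and takes hardly any from the gene's own arrays. For TNFRSF8 the SE of the stimulation effect was 0.26 there, against 0.44 in the first fit, though its difference of responses was -1.56. The p-values of that fit thus hold no replicate error and hardly any of the disagreement between the lines.

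**Figure D2:**
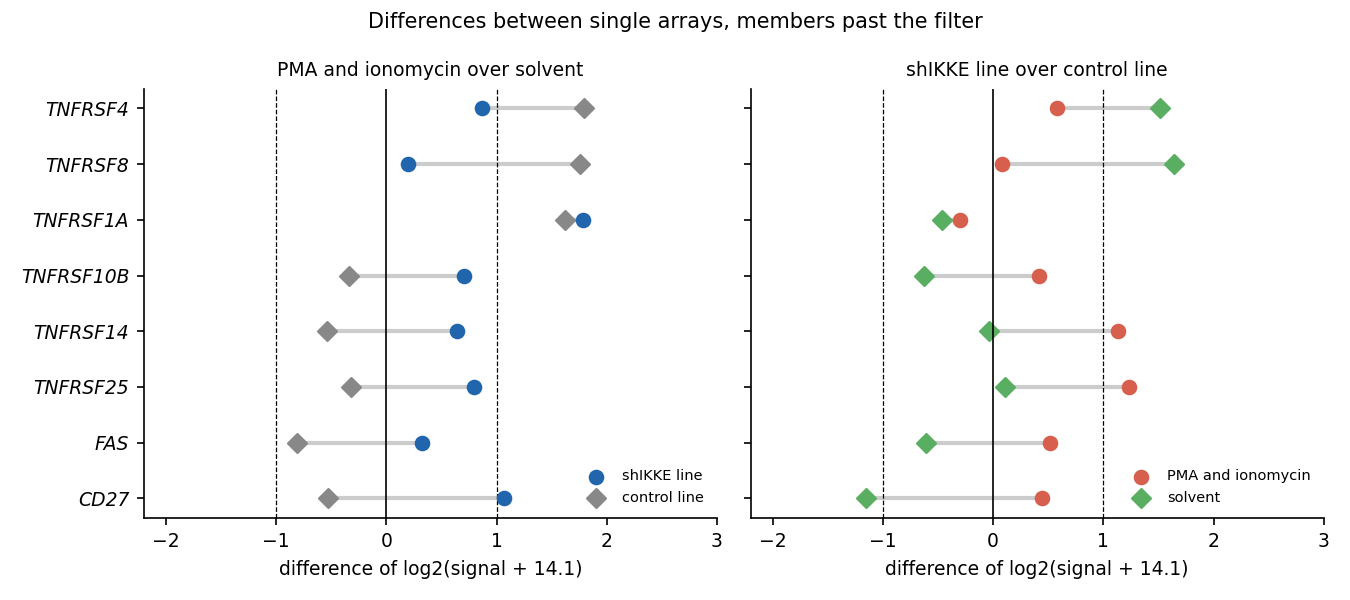
Log2 differences between single arrays for the 8 genes past the filter, with stimulation over solvent on the left (circles shIKKE line, diamonds control line) and shIKKE over control line on the right (circles stimulation, diamonds solvent). Dashed lines mark 2-fold; TNFRSF1A is past it in both lines, and the circles of TNFRSF10B, TNFRSF14, TNFRSF25, FAS and CD27 lie right of their diamonds.

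FAS encodes the receptor for Fas ligand, which starts caspase activation through FADD and by which activated T cells can be deleted. Its brightest probe set read 962 with stimulation against 767 with solvent in the shIKKE line, and 666 with stimulation against 1177 with solvent in the control line. The control line with solvent was the highest array and the stimulated control line the lowest, with both shIKKE arrays between them. The log2 difference of stimulation was 0.32 in the shIKKE line and -0.81 in the control line, both within 2-fold, and the difference of responses was 1.13. With the other line's solvent array as baseline the log2 differences were -0.29 in the shIKKE line and -0.20 in the control line, so the signs no longer differed. FAS has 3 more probe sets with signals of at least 204 on all arrays, and all 4 had the same signs, with log2 differences from 0.23 to 0.57 in the shIKKE line and from -0.90 to -0.50 in the control line. Among them 215719_x_at and 216252_x_at are x_at sets, whose probes can bind other transcripts too, and the -0.90 is that of 216252_x_at. All 4 are annotated to the same gene and are not replicates of a condition. The fifth FAS probe set, 233820_at, read 13.1 with stimulation against 30.9 with solvent in the shIKKE line, and 54.7 against 65.1 in the control line, so that it was lower with stimulation in both.

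CD27 encodes a costimulatory receptor of naive and memory T cells that binds CD70. It read 420.1 with stimulation against 193 with solvent in the shIKKE line, and 306 with stimulation against 446 with solvent in the control line. The shIKKE line with solvent was the low array, and the stimulated shIKKE line was close to the control line with solvent. The log2 difference of stimulation was 1.07 in the shIKKE line (2.10-fold) and -0.53 in the control line. At rest CD27 was the 1 gene of the 8 that the shIKKE line had at least 2-fold lower than the control line (log2 -1.16), and its difference of responses was 1.60. With the other line's solvent array as baseline the log2 differences were -0.084 in the shIKKE line and 0.63 in the control line, and both signs turned. After quantile normalization the log2 difference in the shIKKE line was 0.90, just within 2-fold.

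TNFRSF10B encodes a death receptor for TRAIL, also called DR5. Its brightest probe set, 209295_at, read 1578 with stimulation against 966 with solvent in the shIKKE line, and 1181 with stimulation against 1501 with solvent in the control line. The log2 difference of stimulation was 0.70 in the shIKKE line and -0.34 in the control line. With the other line's solvent array as baseline it was 0.07 and 0.29. Its dimmer probe sets did not share these signs. Probe set 1556645_s_at read 109.7 with stimulation against 97.3 with solvent in the shIKKE line, and 130.3 against 54.1 in the control line (log2 0.15 and 1.08). Probe set 210405_x_at read 136 with stimulation against 56.9 with solvent in the shIKKE line, and 54.6 against 45.0 in the control line (log2 1.08 and 0.22). A further probe set, 209294_x_at, stayed under the filter, with signals between 12.4 and 44.6.

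TNFRSF14 encodes HVEM, which binds LIGHT and lymphotoxin alpha and also the inhibitory receptor BTLA. It read 254 with stimulation against 158 with solvent in the shIKKE line, and 108 with stimulation against 162 with solvent in the control line. At rest the lines read alike (log2 -0.04), and with stimulation the shIKKE line read 2.20-fold higher (log2 1.14). The log2 difference of stimulation was 0.65 in the shIKKE line and -0.53 in the control line, and with the other line's solvent array as baseline it was 0.60 and -0.49. As the lines read alike at rest, that exchange could hardly change the values. TNFRSF25, the TL1A receptor also called DR3, had 5 probe sets of which 2 reached the filter, each on 1 array only. Its probe set 211841_s_at read 67.5 with stimulation against 32.8 with solvent in the shIKKE line, and 20.7 against 29.4 in the control line. Its probe set 211282_x_at read 16.5 with stimulation against 61.6 with solvent in the shIKKE line, and 15.6 against 21.5 in the control line. The 2 probe sets had opposite signs of stimulation in the shIKKE line (log2 0.80 and -1.31). The brighter one passed the filter through the stimulated shIKKE array alone, so a count of it as higher there is no result, and no direction is drawn for this gene.

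**Figure D3:**
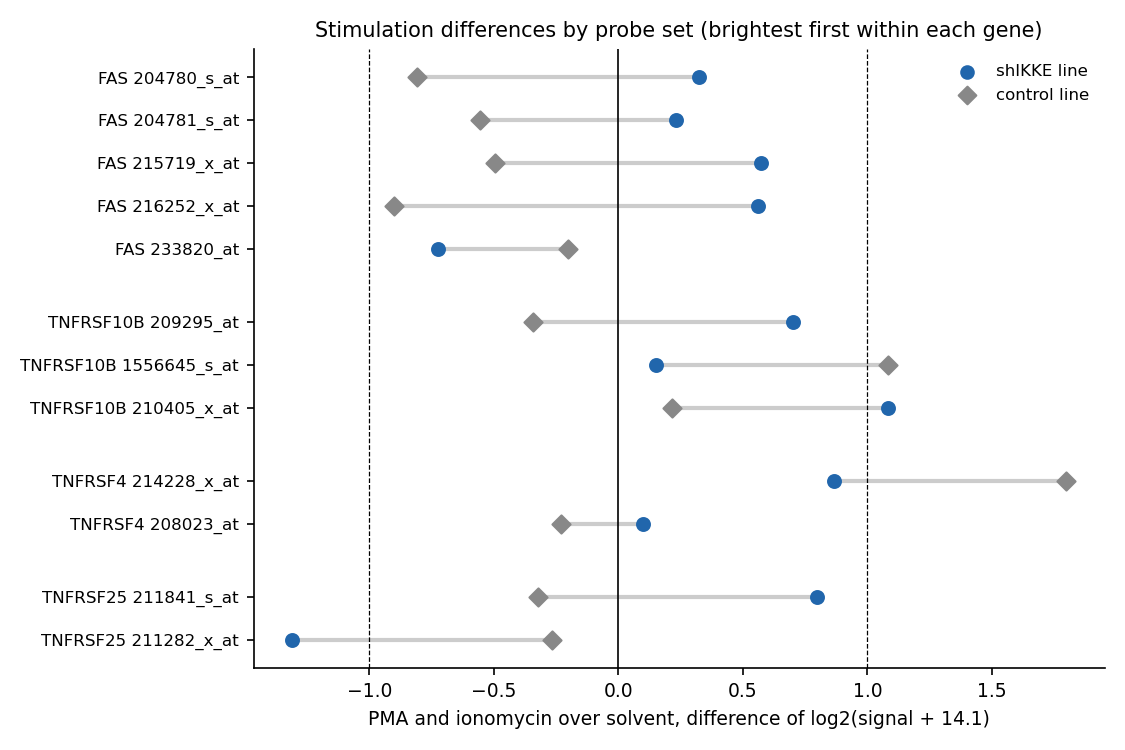
Log2 difference of stimulation over solvent in the shIKKE line (circles) and the control line (diamonds) for every probe set past the filter of the genes with more than 1, brightest first. The 4 brighter FAS probe sets have a positive value in the shIKKE line and a negative one in the control line, while probe sets of TNFRSF10B, TNFRSF4 and TNFRSF25 differ from each other.

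Of the 7 measured genes other than TNFRSF25, 4 (TNFRSF10B, TNFRSF14, FAS and CD27) had a positive stimulation difference in the shIKKE line and a negative one in the control line by their brightest probe set, and none the reverse. Over all genes 20.5% had the first pattern and 16.7% the reverse, 37.2% together. The pattern rests on each line's own solvent array for TNFRSF10B, FAS and CD27, as given above. For the difference of responses the same 4 of the 7 genes were at least 2-fold higher and 1 (TNFRSF8) at least 2-fold lower, where 11.4% of all genes were higher and 4.67% lower. With the median of a gene's probe sets TNFRSF10B was no longer among them (log2 -0.65). For the shIKKE line over the control line with stimulation, 1 of the 7, TNFRSF14, was at least 2-fold higher and none lower, where 5.99% of all genes were higher and 2.37% lower. With solvent 2 were higher, TNFRSF4 and TNFRSF8, and 1 lower, CD27, where 4.34% were higher and 6.68% lower. The 3 death domain receptors other than TNFRSF25 had median stimulation differences (log2) of 0.70 in the shIKKE line and -0.34 in the control line. Those medians are the values of TNFRSF10B, while TNFRSF1A was at 1.78 and 1.62 and FAS at 0.32 and -0.81. The 4 measured TRAF-binding receptors had medians of 0.76 and 0.62. The latter lies between TNFRSF4 and TNFRSF8 (1.80 and 1.76) and TNFRSF14 and CD27 (both -0.53). With the other solvent baseline TNFRSF4 and TNFRSF8 were at 0.29 and 0.11 in the control line, TNFRSF14 at -0.49 and CD27 at 0.63. No difference between the classes is drawn from these medians. The difference between the lines' responses cannot be tested for any of these genes, because its error would have to come from replicates.

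TNFRSF9, which encodes the inducible costimulatory receptor CD137, read at most 26.0 on any array by each of 3 probe sets. Its probe set 211786_at read 18.5 with stimulation against 3.91 with solvent in the shIKKE line, and 4.85 against 26.0 in the control line. Its probe set 207536_s_at read 19.0 with stimulation against 12.6 with solvent in the shIKKE line, and 5.25 against 3.77 in the control line, and the third, 238950_at, read 9.43 against 3.01 in the shIKKE line and 14.0 against 17.0 in the control line. All 3 read higher with stimulation in the shIKKE line, while in the control line 1 read higher and 2 lower, and at these low signals no direction is read from them. TNFRSF1B, the second TNF receptor, read 38.9 with stimulation against 10.8 with solvent in the shIKKE line, and 14.3 with stimulation against 9.31 with solvent in the control line. All of these lie below the filter, so no fold is given for either gene.

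Of the 10 genes, 6 lie on chromosome 1, namely TNFRSF4, TNFRSF8, TNFRSF9, TNFRSF1B, TNFRSF14 and TNFRSF25, while TNFRSF1A and CD27 lie on chromosome 12 and FAS on chromosome 10 (RefSeq, GRCh38.p14). TNFRSF8 and TNFRSF1B are next to each other among protein-coding genes, and of the pair TNFRSF8 passed the filter and TNFRSF1B did not. The neighbour of TNFRSF4 is TNFRSF18, which encodes the costimulatory receptor GITR. Its probe set 224553_s_at read 84.8 with stimulation against 69.3 with solvent in the shIKKE line, and 84.8 with stimulation against 18.8 with solvent in the control line. By this probe set the control line with solvent was the low array, at a signal under the filter. A second TNFRSF18 probe set read 70.8 against 40.2 in the shIKKE line and 72.7 against 43.6 in the control line. By that one both solvent arrays were under the filter, and the control line with solvent was not the lowest.

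The 250 bases before the annotated start are shown for TNFRSF1A and TNFRSF8, which were higher with stimulation in both lines or in the control line, for FAS and CD27, whose signs differed between lines, and for TNFRSF9, which stayed under the filter. They are RefSeq windows of GRCh38.p14, read 5′ to 3′ on the gene's strand, and 8 of the 10 genes had at least 1. Capitals mark matches on either strand to the AP-1 site TGANTCA, the NFAT core GGAAA or the NF-κB consensus. For FAS the window of the most upstream of its 3 annotated starts is given.
TNFRSF1A (chr12:6342077-6342326, minus strand): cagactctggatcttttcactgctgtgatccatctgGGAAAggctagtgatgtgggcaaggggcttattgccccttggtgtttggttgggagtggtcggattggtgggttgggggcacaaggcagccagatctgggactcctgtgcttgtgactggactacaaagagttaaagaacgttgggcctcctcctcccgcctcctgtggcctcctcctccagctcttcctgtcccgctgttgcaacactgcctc
TNFRSF8 (chr1:12063053-12063302, plus strand): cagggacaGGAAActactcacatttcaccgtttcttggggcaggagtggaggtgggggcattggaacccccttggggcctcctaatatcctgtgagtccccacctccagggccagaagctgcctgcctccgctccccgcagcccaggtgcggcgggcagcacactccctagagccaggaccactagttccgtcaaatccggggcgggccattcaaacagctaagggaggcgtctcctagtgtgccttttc
TNFRSF9 (chr1:7940840-7941089, minus strand): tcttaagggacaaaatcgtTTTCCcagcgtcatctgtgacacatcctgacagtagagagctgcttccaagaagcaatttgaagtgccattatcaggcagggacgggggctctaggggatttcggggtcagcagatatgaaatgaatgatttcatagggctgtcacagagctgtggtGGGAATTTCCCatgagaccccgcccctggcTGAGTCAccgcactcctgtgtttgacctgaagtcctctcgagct
FAS (chr10:88990548-88990797, plus strand): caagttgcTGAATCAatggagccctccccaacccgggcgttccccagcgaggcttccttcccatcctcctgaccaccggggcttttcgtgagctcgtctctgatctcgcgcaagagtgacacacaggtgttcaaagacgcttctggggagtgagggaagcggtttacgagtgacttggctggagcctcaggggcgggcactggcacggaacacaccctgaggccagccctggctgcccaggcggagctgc
CD27 (chr12:6443642-6443891, plus strand): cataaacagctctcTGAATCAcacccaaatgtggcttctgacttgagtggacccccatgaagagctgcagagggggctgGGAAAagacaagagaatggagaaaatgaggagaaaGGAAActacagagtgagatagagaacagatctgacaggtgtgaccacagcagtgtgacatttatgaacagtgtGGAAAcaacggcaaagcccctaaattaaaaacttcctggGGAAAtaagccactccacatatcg
The TNFRSF1A and TNFRSF8 windows each held 1 GGAAA match, 214 and 242 bases before the start, and no match to the other 2 motifs. The TNFRSF9 window held an AP-1 match 44 bases before the start, overlapping NF-κB matches on both strands from 74 bases before it, with a GGAAA match inside them, and 1 more GGAAA match. The CD27 window held an AP-1 match 236 bases before the start and 4 GGAAA matches, and the FAS window an AP-1 match 242 bases before the start. Of the other 2 FAS windows, 1 held an NF-κB match 157 bases before its start and the other no match. Among windows not printed, that of TNFRSF14 held an NF-κB match 84 bases before the start and 3 GGAAA matches, and those of TNFRSF1B and TNFRSF25 held none of the 3 motifs. Over 35116 windows of the same length, 6.57% held the AP-1 letters, 5.21% the NF-κB consensus and 55.6% GGAAA. Of the 2 genes that stayed under the filter, TNFRSF9 had matches to all 3 motifs and TNFRSF1B to none, and a match is a run of letters and not a bound site.

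The ligands of these receptors include genes with large differences. Of 10 ligand genes past the filter (11 listed), 7 were at least 2-fold higher with stimulation in the shIKKE line and 5 in the control line, with median log2 differences of 1.94 and 0.79. With every signal under the filter raised to it, an alternative chosen after seeing the data, these counts were again 7 and 5 and the medians 1.54 and 0.66. Of all 13717 genes, 661 were then higher in the shIKKE line and 609 in the control line. Set against the other line's solvent array, 6 ligand genes passed 2-fold upward for the stimulated shIKKE line. For the stimulated control line 5 passed it upward and 1, TNFSF9, downward (log2 -1.01). Of all 13717 genes, 1444 passed upward for the stimulated shIKKE line. For the stimulated control line 1100 of all genes passed upward and 601 downward. The medians were then 1.75 for the shIKKE line and 1.54 for the control line. The gap between the lines' medians was thus smaller with that baseline. TNF, the ligand of TNFRSF1A, read 7245 with stimulation against 95.0 with solvent in the shIKKE line, and 2442 against 173 in the control line. LTA read 822 against 16.7 in the shIKKE line and 344 against 57.7 in the control line. LTB read by its brightest probe set 11128 against 453 in the shIKKE line and 10988 against 352 in the control line. It was counted although its receptor gene LTBR is not 1 of the receptors followed here. TNFSF15 was the listed ligand gene that did not pass the filter. TNFSF14, which encodes LIGHT, the ligand of TNFRSF14, read 2807 with stimulation against 4.09 with solvent in the shIKKE line, and 1303 against 8.44 in the control line. Its solvent signals were far under the filter, so the size of the difference is not measured; with them raised to the filter the log2 differences were 5.32 and 4.22. Receptor and ligand of that pair had unlike signs in the control line, where TNFRSF14 was at -0.53.

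FASLG, which encodes Fas ligand, read 179 with stimulation against 26.2 with solvent in the shIKKE line, and 39.5 against 30.7 in the control line. A second FASLG probe set read 157 against 17.1 in the shIKKE line and 14.8 against 18.1 in the control line. For both, the stimulated shIKKE array was the 1 array above the filter. FASLG is among the ligand genes counted as higher in the shIKKE line, and for it that count is no result. CD70 read 470.4 with stimulation against 179 with solvent in the shIKKE line, and 118 against 170.4 in the control line (log2 1.33 and -0.48). CD27 had these signs too when each line was set against its own solvent array. Against the other line's solvent array CD70 was at 1.39 and -0.55 and CD27 at -0.084 and 0.63. Their signs were then opposite in both lines. TNFSF10, which encodes TRAIL, the ligand of TNFRSF10B, was at least 2-fold higher with stimulation in both lines (log2 1.61 and 1.32). With the other line's solvent array as baseline the values were 0.26 and 2.67. TNFSF10 read 775 in the shIKKE line against 1624 in the control line with stimulation. TNFSF4 and TNFSF8, the ligands of TNFRSF4 and TNFRSF8, lay within 2-fold in both lines by their brightest probe sets. The TNFRSF9 ligand gene TNFSF9 read 495 with stimulation against 317 with solvent in the shIKKE line, and 149.9 against 297 in the control line (log2 0.62 and -0.93).

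**Figure D4:**
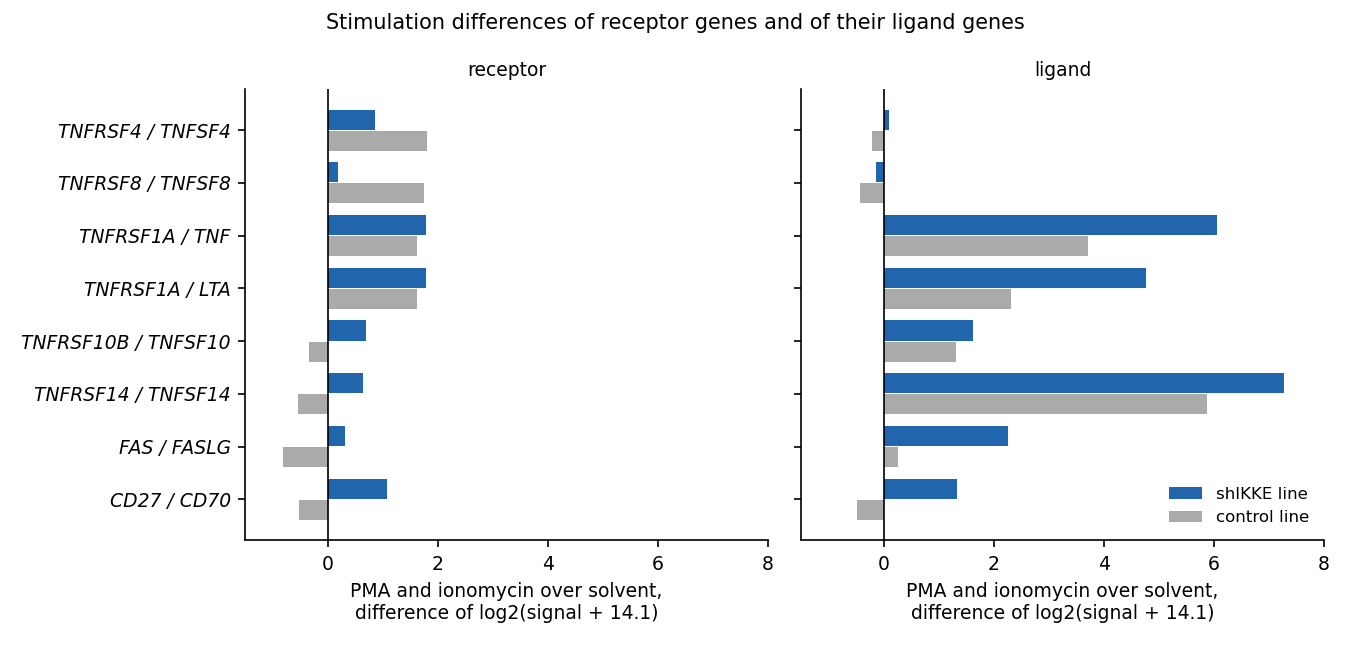
Log2 difference of stimulation over solvent for 7 receptor genes (left) and the ligand genes they bind (right), with the shIKKE line above the control line in each pair of bars; TNFRSF1A is drawn once for TNF and once for LTA. The TNF, LTA and TNFSF14 bars are the long ones. The solvent signals of TNFSF14 and that of LTA in the shIKKE line lay under the filter of 56.4. FASLG was above it on the stimulated shIKKE array alone, so its bar for that line is no result. CD27 and CD70 both have a positive bar in the shIKKE line and a negative one in the control line. Against the other line's solvent array, not drawn here, CD27 and CD70 had opposite signs in both lines.

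Other receptors of the superfamily were read beside these. Of 19 further receptor genes listed, 10 passed the filter. With stimulation 2 of them were at least 2-fold higher and 1 lower in the shIKKE line, and 3 were higher and none lower in the control line. Over all genes 10.3% were higher and 2.68% lower in the shIKKE line, and 7.57% higher and 6.44% lower in the control line. TNFRSF12A, the TWEAK receptor, read 524 with stimulation against 10.7 with solvent in the shIKKE line, and 668 against 121 in the control line. With its solvent signal in the shIKKE line raised to the filter, the log2 differences were 2.93 and 2.33. With dim signals of all 10 raised so, TNFRSF12A was the 1 gene at least 2-fold higher in either line and none was lower. EDAR, the ectodysplasin receptor, read 92.8 against 14.2 in the shIKKE line and 101.4 against 86.4 in the control line. TNFRSF21, also called DR6, read 1044 with stimulation against 1783 with solvent in the shIKKE line, and 1034 against 1844 in the control line, within 2-fold in both (log2 -0.76 and -0.83).

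Genes with the most similar pattern were sought for the 3 receptors with the widest range, by the Euclidean distance of log2 values centred on each gene's mean, over 4 arrays only. For TNFRSF1A the nearest of 13717 genes were SLC22A4 (distance 0.11), HRH1 (0.12) and NRARP (0.15). NRARP, a Notch-regulated gene, read 408 with stimulation against 124 with solvent in the shIKKE line, and 539 against 177 in the control line. For TNFRSF4 they were LRRC74A (0.10), ARHGAP27P1 (0.11) and DNAH5 (0.19), and for TNFRSF8 USP5 (0.09), SLC67A1-AS (0.09) and LYN (0.10). The 8 genes named here other than NRARP read at most 147 on any array, so their likeness rests on dim signals, and 4 arrays give few points to tell patterns apart.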

How the data were processed

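RNA of 4 samples was hybridised to 1-colour arrays, 1 sample per group. The authors deposited a linear intensity for each probe set, computed with MAS5 per the submitters' processing notes; its version is not given in the sources used here. Gene names came from the platform annotation, where 41091 probe sets have 1 symbol, 1801 several and 11721 none, with 62 array controls left out; 41037 matched RefSeq by gene ID. Signals were raised by 14.1 (their 25th percentile) and taken to log2, for 13717 genes whose signal reached 56.4 on at least 1 array. Probe sets of a gene share 1 array and are not replicates. Differences of single arrays have no test. limma 3.58.1 in R 4.3.3 was fitted over all genes with an additive model of line and stimulation, two-sided, with Benjamini-Hochberg adjustment. The code was also run on simulated arrays with large changes, small equal noise and no built-in difference between the lines' responses. That run does not measure the error rate on these arrays. Other steps used Python 3.11.15, pandas 2.3.3, numpy 2.4.6 and matplotlib 3.10.9. The labels name no separate cultures. The receptors, the other gene lists and the genes named (all 10 receptors with every probe set, every ligand, up to 4 genes of at least 2-fold per other list, the 3 nearest patterns of 3 receptors, and IKBKE) were chosen with earlier results of these data known. EGR1, FOSB, CD2, LAT and TNFRSF21 were named after their values were seen. Alternatives were no pseudocount, quantile normalization, no filter, the median of a gene's probe sets, the other solvent baseline, a prior variance that follows the level and, added after seeing the data, leaving out probe sets ending in x_at, raising signals under the filter to it, and leaving out TNFRSF25. The number of arrays limits the precision.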

Additional observations from a re-analysis of the deposited data

Results flagged for a closer look

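Among the receptors, 5 genes had opposite signs of the stimulation difference in the lines, and the difference between lines was not tested, since each line has 1 array per treatment. The log2 difference was 1.07 in the shIKKE line and -0.53 in the control line for CD27, 0.32 and -0.81 for FAS, and 0.65 and -0.53 for TNFRSF14. It was 0.70 in the shIKKE line and -0.34 in the control line for TNFRSF10B, and 0.80 and -0.32 for TNFRSF25, by the brightest probe set of each gene. For TNFRSF25 the probe sets disagree and 1 array alone reached the filter, so no direction is drawn from its values. Opposite signs were found for 37.2% of all 13717 genes. With the solvent array of the other line as baseline, the values were -0.084 and 0.63 for CD27, -0.29 and -0.20 for FAS, and 0.07 and 0.29 for TNFRSF10B, each with the shIKKE line first, so for these 3 genes the pattern rests on which solvent array is used. TNFRSF14 kept its signs, at 0.60 and -0.49. Its solvent signals were alike in the lines (log2 -0.04), so the exchange of baselines could hardly change them and is no check.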

How the results depend on the processing

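No paired analysis was possible because each group has 1 array and the labels give no replicate numbers. Of 256 recomputed differences of single receptors, 14 changed sign, 6 of them differences of at least 2-fold and 8 within 2-fold. Among the 256, 14 that were at least 2-fold fell within it and 6 came to exceed it. Many of the 256 could not change, so these counts do not measure stability. Dropping the filter left all values of the 8 genes as they were. Leaving out x_at sets could alter TNFRSF4 alone, and raising dim signals TNFRSF25 alone. The median could alter only genes with more than 1 probe set past the filter. The receptors at least 2-fold apart between lines with stimulation numbered 1 in place of 2 after quantile normalization and with the median of a gene's probe sets. They also numbered 1 without TNFRSF25 and with signals under the filter raised to it, both chosen after seeing the data. Those higher in the stimulated control line numbered 1 in place of 3 with the other solvent baseline, where 1100 of 13717 genes were higher. After quantile normalization TNFRSF25 was represented by its other probe set and had log2 values of -0.13 between lines with stimulation and -1.23 for the difference of responses. The difference of responses over all 8 genes was at least 2-fold higher for 5 and lower for 1, against 3 and 1 with the median of probe sets, where TNFRSF10B was at -0.65, and 4 and 2 after quantile normalization. For stimulation in the shIKKE line quantile normalization gave 1 higher (TNFRSF1A, CD27 being at 0.90) and 1 lower (TNFRSF25), in place of 2 and 0. Without x_at probe sets, an alternative chosen after seeing the data, TNFRSF4 was at -0.23 for stimulation in the control line and -0.22 between lines with solvent. With the other solvent baseline CD27 was at -0.084 in the shIKKE line. For stimulation, limma passed 1 gene of all, 0 with no pseudocount, quantile normalization, no filter or the median of probe sets (unadjusted p under 0.05 for 1591, 2048, 2150 and 1899), and 1044 with the variance following the level; for the line that fit passed 232 in place of 0. Where these settings changed a value, the cause was not tested beyond the probe set or baseline named.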

Other observations

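Adaptors and regulators that act below these receptors were read as well. Of 17 measured genes (20 listed), 4 were at least 2-fold higher and none lower with stimulation in the shIKKE line, and 2 were higher and 2 lower in the control line, with median log2 differences of 0.16 and -0.17. Over all genes 10.3% were higher and 2.68% lower in the shIKKE line, and 7.57% higher and 6.44% lower in the control line. With the solvent array of the other line as baseline 2 of the 17 were higher and 2 lower in the shIKKE line, and 5 higher and 1 lower in the control line. Of 13717 genes, 1444 were then higher and 890 lower in the shIKKE line, and 1100 higher and 601 lower in the control line. TRAF1, an NF-κB target gene that encodes an adaptor of TRAF-binding receptors, read 429 with stimulation against 67.2 with solvent in the shIKKE line, and 229 against 99.0 in the control line (log2 2.45 and 1.10). A second TRAF1 probe set had the lines in the other order, with 137 against 36.0 in the shIKKE line and 142 against 24.3 in the control line (log2 1.60 and 2.02). TNFAIP3, which encodes the NF-κB inhibitor A20, read 3444 with stimulation against 930 with solvent in the shIKKE line, and 4514 against 2675 in the control line (log2 1.87 and 0.75), and 0.36 and 2.26 with the other baseline. MAP3K14, the kinase of the noncanonical NF-κB pathway, read 538 against 176.5 in the shIKKE line and 397 against 224 in the control line. CFLAR, which encodes the caspase inhibitor cFLIP, read by its brightest probe set 1466 with stimulation against 667 with solvent in the shIKKE line, and 1134 against 1169 in the control line (log2 1.12 and -0.04). Of 12 CFLAR probe sets past the filter, however, 9 were higher with stimulation in both lines, with log2 differences from 0.55 to 2.47 in the shIKKE line and from 0.92 to 2.49 in the control line. FADD and CASP8, the proximal death domain partners, lay within 2-fold in both lines by their brightest probe sets. RNF31 and RBCK1, which belong to the linear ubiquitin ligase complex, were at least 2-fold lower with stimulation in the control line (log2 -1.82 and -1.01) and within 2-fold in the shIKKE line (log2 -0.94 and -0.29). With the other baseline the log2 differences in the control line were -1.60 for RNF31 and -0.14 for RBCK1. The other 2 RBCK1 probe sets past the filter were at -0.44 and -0.58 in the control line, and the RNF31 probe set is an x_at one. These differences come from single arrays and have no test.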
